A study of Mus musculus with 10 samples.

Results

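The mitochondrial respiratory chain was measured as RNA in 10 mouse tumors through 82 genes, taken as every gene on the array whose name begins with Nduf, Uqcr, Sdh followed by a to d, Cox4 to Cox8, or Atp5. They are 82 of the 27962 gene names on the array and were measured by 113 of its 41174 probes (57 genes by 1 probe and 25 by several). Each gene was represented by its brightest probe over all arrays. By name, 36 belong to complex I, 4 to complex II, 7 to complex III, 17 to complex IV and 15 to complex V. The other 3 carry a matching name without being subunits: Cox4nb is now named Emc8, Ndufaf1 is an assembly factor of complex I, and Atp5s is now named Dmac2l. They were kept apart as a sixth class.

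The study asked which genes set metastatic sarcomatoid (spindle cell) mammary carcinomas apart from adenocarcinomas in C57BL/6 mice. In these mice MMTV-Cre, which drives Cre in mammary epithelium, switches on mutant Pik3ca, mutant Trp53 or both. The sarcomatoid group held 5 tumors. By the methods they were a primary tumor with Pik3ca H1047R, Trp53 R270H and MMTV-Cre together with its lung derivative, a primary tumor with Pik3ca H1047R and MMTV-Cre that had gained Trp53 R245H by itself together with its lung derivative, and a primary tumor with Trp53 R270H and MMTV-Cre. The labels number these tumors 323, 323 lung, 307, 307 lung and 594. Tumor 594 has no lung partner and so should be the Trp53 R270H tumor, while the labels do not say which genotype 323 or 307 has. The lung tumors grew after tail vein injection of cell lines made from tumors 323 and 307, so the group holds 3 origins and not 5. The adenocarcinoma group held 5 mammary tumors (105, 131, 470, 17 and 85), which the methods give as primaries with Pik3ca H1047R, Trp53 R270H and MMTV-Cre. Ages were not given in the labels. Each tumor was a piece of tissue, so its RNA also came from other cells in the piece, and fewer cells of a type cannot be told apart from less RNA per cell.

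Each value is a log2 ratio of a tumor over a common reference RNA on an array with a red and a green channel. The labels give Cy3 (green) as the dye of the tumor, but green varied less between arrays than red (mean SD of log2 signal 0.525 against 0.776), so green was read as the reference and red as the tumor, which is likely and not certain. If the dye label were right, the sign of every value and difference between groups here would turn. Slopes on the muscle score used below would keep their sign, since the score would turn too, but the tumors highest in the score would then be the lowest. Of the 82 genes, 79 were well above background in the red channel on all 10 arrays, Cox8b on 7, Cox4i2 on 5 and Cox8c on 0, and none was saturated. The median of the mean red signal was 20524 for the members and 178 for all probes. Across all probes, between 52.2% and 83.0% were well above background on an array, and columns of different tumors correlated between 0.414 and 0.772. As a check of the labels, the mean of 7 epithelial genes was 2.95 to 3.43 in 4 adenocarcinomas but -1.45 in adenocarcinoma 470. It was 0.89 to 1.54 in mammary sarcomatoid tumors and -1.71 and -2.45 in the lung tumors. Tumor 470 thus lay within the range of the sarcomatoid group and below its mammary tumors.

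The respiratory chain passes electrons from NADH (complex I) or succinate (complex II) through complex III to oxygen at complex IV, and complex V makes ATP from the proton gradient that results. Nearly all subunits are encoded in the nucleus and made in every cell with mitochondria. A few subunits of complex IV exist as tissue isoforms. Cox6a2, Cox7a1 and Cox8b are the forms of heart and skeletal muscle, and Cox7a1 and Cox8b are also made in brown fat, whereas Cox6a1, Cox7a2 and Cox8a are their widely expressed counterparts. The mammary fat pad lies against muscle of the body wall, so a tumor piece may hold muscle and fat.

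The upstream sequences of a muscle isoform that moved with muscle genes below (Cox8b), of another that did not pass that test (Cox7a1) and of widely expressed counterparts (Cox8a and Cox6a1) are shown for comparison. The 250 bases before each start come from RefSeq on GRCm38.p6: Cox8b at chr7:140900447-140900696 (minus strand), Cox7a1 at chr7:30183921-30184170 (plus strand), Cox8a at chr19:7217617-7217866 (minus strand) and Cox6a1 at chr5:115348959-115349208 (minus strand). Capitals mark matches on either strand to CAGCTG (an E-box of the kind bound by myogenic factors), GCGCATGCG (NRF1) or CCGGAAG (ETS factors).
Cox8b: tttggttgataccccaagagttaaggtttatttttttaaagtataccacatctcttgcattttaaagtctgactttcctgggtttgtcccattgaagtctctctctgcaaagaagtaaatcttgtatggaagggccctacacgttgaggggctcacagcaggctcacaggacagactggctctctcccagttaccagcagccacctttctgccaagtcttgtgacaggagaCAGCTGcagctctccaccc
Cox7a1: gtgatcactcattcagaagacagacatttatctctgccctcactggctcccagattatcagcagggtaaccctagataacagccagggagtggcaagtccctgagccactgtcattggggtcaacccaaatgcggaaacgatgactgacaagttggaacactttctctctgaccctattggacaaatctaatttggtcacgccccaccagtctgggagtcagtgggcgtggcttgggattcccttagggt
Cox8a: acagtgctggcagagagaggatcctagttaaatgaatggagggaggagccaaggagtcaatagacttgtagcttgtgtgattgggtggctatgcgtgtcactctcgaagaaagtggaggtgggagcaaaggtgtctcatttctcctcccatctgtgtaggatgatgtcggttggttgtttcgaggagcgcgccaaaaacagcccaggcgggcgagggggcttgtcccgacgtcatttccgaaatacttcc
Cox6a1: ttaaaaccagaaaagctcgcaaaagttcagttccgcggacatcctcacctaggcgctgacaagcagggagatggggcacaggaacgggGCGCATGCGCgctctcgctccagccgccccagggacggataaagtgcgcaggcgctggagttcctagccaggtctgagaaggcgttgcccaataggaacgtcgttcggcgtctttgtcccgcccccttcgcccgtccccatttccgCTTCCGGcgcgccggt

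In Cox8b the E-box lay 19 to 14 bases before the start. In Cox6a1 overlapping NRF1 matches lay 162 to 153 bases before the start and an ETS match 16 to 10 bases before it. The windows of Cox7a1 and Cox8a held none of these letters, and none of the 4 windows matched the MEF2 motif. Their GC content was 47.2% for Cox8b, 51.2% for Cox7a1, 52.8% for Cox8a and 62.8% for Cox6a1. Among the 79 subunit genes, 65 had a window in the table and Cox6a2 did not. An NRF1 match was found in 6 of the 65 (9.23%) and in 403 of 27025 windows of all genes (1.49%). An ETS match was found in 11 of the 65 (16.9%) and in 7.05% of all windows, and the E-box in 6 (9.23%) and in 12.8%. The MEF2 motif was found in 0 of the 65 and in 3.01% of all windows. The median GC content was 56.4% for the windows of members and 52% for those of all genes, and its part in these shares was not tested. A match describes letters and does not show binding.

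Most members differed little between tumors. The median over members of the SD across the 10 tumors was 0.39 on the log2 scale, beside 0.57 for all probes and 0.52 for the 20264 probes well above background on all arrays. These sets were not matched for brightness (median mean red signal 20524 for members and 178 for all probes), and its part in the SD was not tested. The steadiest were Sdhc, a membrane anchor of complex II (SD 0.16), and Ndufs1, the largest subunit of complex I (SD 0.18). Only 8 of the 82 had an SD above 0.6. The muscle isoforms Cox8b (2.70), Cox6a2 (2.27) and Cox7a1 (0.97) were among them, as were Atp5s (1.14), Ndufa11 (0.79), Ndufa4 (0.67), Ndufc2 (0.65) and Cox8c (0.998), which was not well above background on any array.

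**Figure D1:**
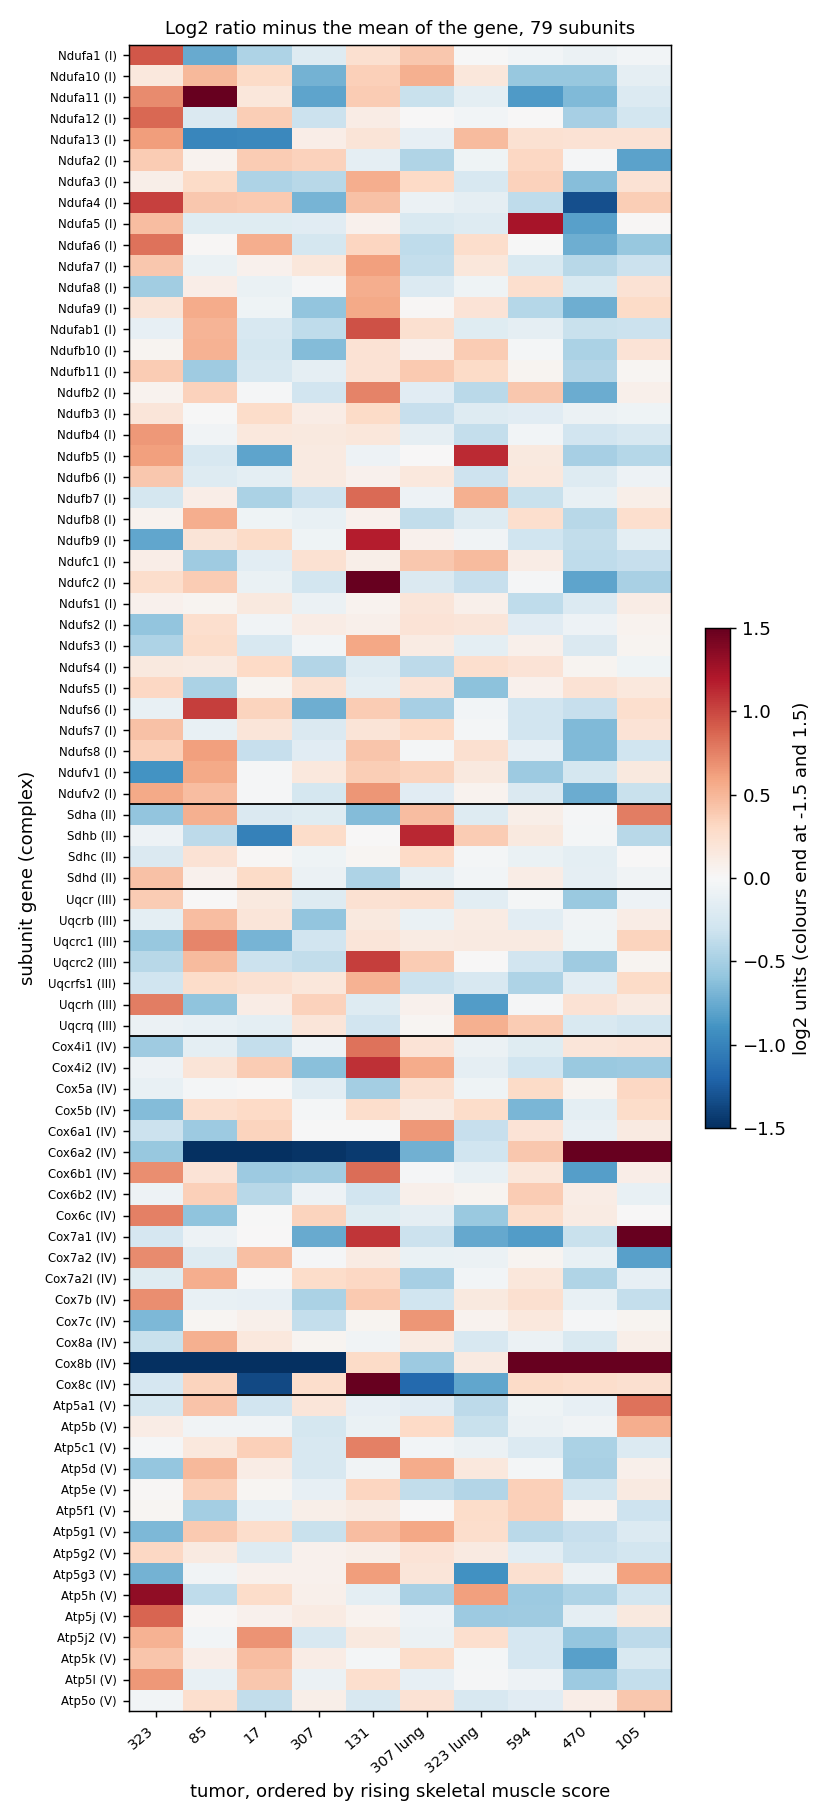
Log2 ratio of each of the 79 subunits in each tumor minus the mean of that gene over the 10 tumors. Rows are genes grouped by complex, columns are tumors ordered by skeletal muscle score, and colours end at -1.5 and 1.5. The rows of Cox6a2 and Cox8b run from low on the left to high in tumors 594, 470 and 105, while most rows stay pale.

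The largest differences among tumors were in Cox6a2 and Cox8b, whose levels were highest in the pieces richest in muscle genes. Muscle genes were put together in a score, the mean log2 ratio of 20 skeletal muscle genes that include no member (Ckm, Acta1 and the fast myosins Myh1, Myh2 and Myh4 among them). The score was -1.09 in tumor 323, -1.08 in 85, -0.94 in 17, -0.83 in 307, -0.31 in 131, 0.33 in 307 lung, 0.66 in 323 lung, 2.42 in 594, 2.97 in 470 and 4.44 in 105. The widest gap, 1.76, separated 594, 470 and 105 from the other 7. These 3 tumors, 1 sarcomatoid and 2 adenocarcinomas, were also high in 7 genes of slow muscle fibers (0.49 in 594, 3.61 in 470 and 2.62 in 105, beside -1.70 to -0.46 in the others). Of these 7 genes, 4 passed the test on the score, beside 0.294% of all probes. All 3 tumors were scanned in the same batch, together with tumor 307. They were also the highest in 6 white fat genes (mean 3.35 in 594, 2.80 in 470 and 3.998 in 105, beside 0.64 to 2.30 in the others). On the score, 5 of these 6 genes and 3 of 6 mesenchymal genes had a slope above 0 at an unadjusted p below 0.05. Of all probes, 5.9% had such a p in either direction. None of these fat and mesenchymal genes passed after adjustment. The part of fat or stroma in the values below was not tested.

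Cox6a2 was measured by probe A_51_P509997 on chromosome 7 from 124302204 to 124302263 (mm7, the build of the scanner file) and was well above background in both channels on all arrays. Its log2 ratio was -3.44 in 323, -3.17 in 323 lung, -4.35 in 307, -3.59 in 307 lung and -2.47 in 594 among the sarcomatoid tumors. Among the adenocarcinomas it was 2.38 in 105, -4.31 in 131, -0.31 in 470, -4.98 in 17 and -4.48 in 85. Tumor 105 was highest, then 470, then 594, and the other 7 lay below them from -4.98 to -3.17. Cox6a2 rose by 1.08 log2 units per unit of muscle score (SE 0.13, limma adjusted p = 0.00346 over all probes).

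Cox8b (probe A_52_P423814, chromosome 7 from 137316216 to 137316275, mm7) had log2 ratios of 4.95 in 594, 5.07 in 470 and 6.63 in 105. The lung tumors followed with 2.21 (323 lung) and 1.52 (307 lung), and tumor 131 was at 2.36. Tumors 307 (0.06), 323 (-0.51), 85 (-0.59) and 17 (-0.99) were lowest. In 594, 470 and 105 both channels were well above background. In 323, 17 and 85 the tumor signal was not, and the reference was not in 323 lung, 307, 307 lung, 131, 17 and 85, so the ratios of the other 7 tumors, and with them the slope, are only rough. Cox8b rose by 1.33 log2 units per unit of score (SE 0.11, limma adjusted p = 0.000211).

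These were the only 2 members among the 118 probes (0.294% of 40196) whose slope on the score passed an adjusted p of 0.05, 117 of which rose. The 118 include 16 of the 20 genes that make up the score, whose rise with it is built in. At an unadjusted p below 0.05 there were 5 members, beside 5.9% of all probes: Cox6a2 and Cox8b upward, and Ndufa6 (slope -0.17), Ndufv2 (-0.16) and Atp5k (-0.15) downward, each with an adjusted p of 0.824 or more. Because of the gap in the score, each slope mostly sets 3 tumors against 7, and no correlation across tumors was computed. The score and the members were read on the same arrays. Without tumor 105, Cox6a2 had a slope of 0.82 with an adjusted p of 0.108 and Cox8b kept its call. With scan batch as a term, the slope of Cox6a2 was 1.17 with an adjusted p of 0.067 and that of Cox8b still passed. Without tumors 105, 470 and 594, no member passed, and the slopes were 0.57 (SE 0.32) for Cox6a2 and 1.70 (SE 0.40) for Cox8b.

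Cox7a1, the other muscle isoform (probe A_51_P148612), showed another order of tumors. Its log2 ratio was 2.63 in 105 and 1.44 in 131, and between -0.47 and 0.37 in the other 8. Tumors 470 (0.04) and 594 (-0.47) lay among those 8 despite their muscle scores. The slope on the score was 0.20 (SE 0.14, limma adjusted p = 0.870), and without tumor 105 it was -0.13. The brown fat genes were measured beside it. Ucp1, the uncoupling protein of brown fat, was at 5.33 in 105 and 0.50 in 131 and between -0.96 and 2.08 in the others, and it was well above background on 5 arrays. Cidea, a lipid droplet protein of brown fat, was at 5.95 in 105 and 3.17 in 131. It was also at 4.46 in 85, 3.69 in 307 and 3.09 in 17, and between -0.81 and 1.92 in the others. The mean of the 4 brown fat genes was 2.97 in 105, 0.94 in 131 and -1.16 to 1.41 in the others. Their part in the level of Cox7a1 was not tested.

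**Figure D2:**
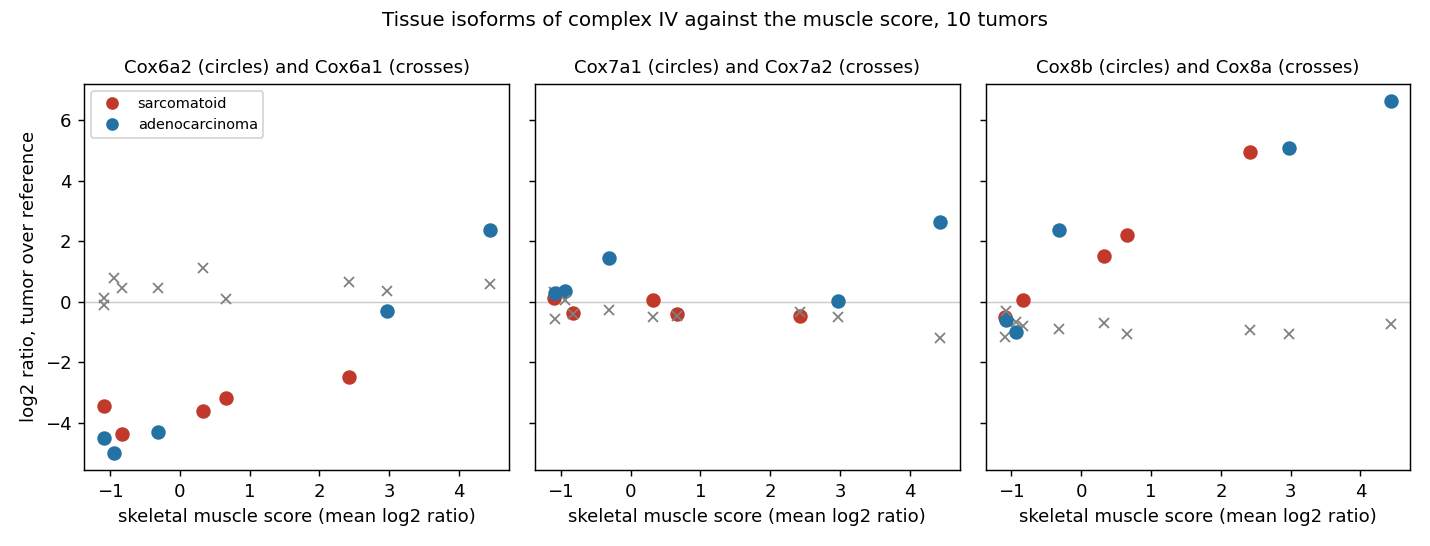
Log2 ratio of the muscle isoform (circles, coloured by group) and of its widely expressed counterpart (grey crosses) against the skeletal muscle score (mean log2 ratio of 20 genes), with 1 point per tumor. Cox6a2 and Cox8b climb toward tumor 105 at a score of 4.44, Cox7a1 is high in 105 and 131, and the crosses stay between -1.20 and 1.11.

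The widely expressed counterparts did not pass the test. Cox6a1 ranged from -0.09 in 85 to 1.11 in 307 lung (slope 0.04, SE 0.07). Cox8a ranged from -1.16 in 323 to -0.29 in 85 (slope -0.03, SE 0.06). Cox7a2 ranged from -1.20 in 105, where Cox7a1 was highest, to 0.32 in 323 (slope -0.14, SE 0.07). Cox4i1, the main form of subunit 4, was highest in 131 (0.38) and lowest in 323 (-0.97). Its lung and hypoxia form Cox4i2 ranged from -0.39 to 1.33 but was dim on 5 arrays, both lung tumors included. Cox7a2l, an assembly factor of supercomplexes, lay between -0.37 and 0.67, Cox6b1 between -1.08 and 0.57, and its testis form Cox6b2 between -0.33 and 0.47.

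**Figure D3:**
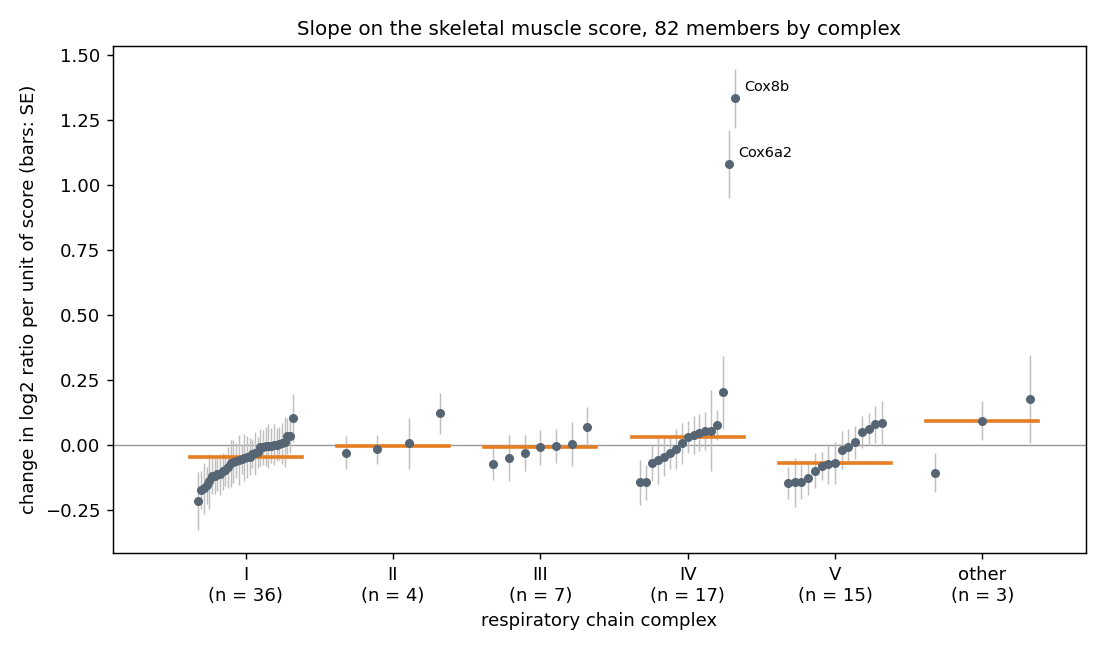
Change in log2 ratio per unit of skeletal muscle score for each member, by complex. Points are genes with their SE and the bar is the median of the class; Cox6a2 (1.08) and Cox8b (1.33) stand above all others, which lie between -0.21 and 0.20.

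Apart from these 2 genes, slopes ran from -0.21 (Ndufa11) to 0.20 (Cox7a1). Over all 82 members 29 slopes were above 0 and 53 below, with a median of -0.03 beside -0.02 for all probes. By complex the median slope was -0.05 for I, 0.00 for II, -0.01 for III, 0.03 for IV and -0.07 for V. After background correction and loess of the scanner files, 43 slopes were above 0 and 39 below, so the balance of small slopes turned there. The log ratio of the scanner software gave 38 above and 44 below. Median centring gave 25 and 57, and quantile normalization 34 and 48. In complex I the highest slopes were those of Ndufa13 (0.10) and Ndufa8 (0.03). In complex II they ran from -0.03 (Sdhd) to 0.12 (Sdha, which holds the flavin that oxidizes succinate). In complex III, Uqcrc1, a core protein, had the highest slope (0.07) and Uqcr, a small subunit, the lowest (-0.07). In complex V, Atp5g3 (0.08) and Atp5a1 (0.08) were highest and Atp5k (-0.15) and Atp5h (-0.14) lowest.

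Between sarcomatoid tumors and adenocarcinomas no member passed the test. In limma, 0 of 40196 probes (0%) had an adjusted p below 0.05, and the lowest adjusted p of a member was 0.412. Of the 82 members 5 had an unadjusted p below 0.05, 3 higher and 2 lower in sarcomatoid tumors, beside 9.23% of all probes. By sign 34 members were higher and 48 lower, with a median difference of -0.06 beside 0.00 for all probes. The median differences by complex were -0.07 (I), 0.03 (II), -0.19 (III), -0.11 (IV) and -0.06 (V). The members' median difference was 0.08 among the 2 tumors per group read in scan batch 2. It was -0.10 in scan batch 3, which set both lung tumors against 3 adenocarcinomas.

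The members nearest to a difference upward were subunits of complexes I, II and III. Ndufb5, an accessory subunit of complex I in the membrane arm, was at 1.25 (323), 1.76 (323 lung), 0.78 (307), 0.65 (307 lung) and 0.79 (594) in sarcomatoid tumors. In adenocarcinomas it was at 0.21 (105), 0.56 (131), 0.15 (470), -0.15 (17) and 0.40 (85), so the groups did not overlap. The difference was 0.81 (SE 0.27, a ratio of 1.76, limma adjusted p = 0.412), with 0.61 in scan batch 2 and 0.94 in scan batch 3. Ndufc1, another accessory subunit, was between 0.23 and 0.60 in sarcomatoid tumors and between -0.41 and 0.21 in adenocarcinomas (difference 0.53, SE 0.22, adjusted p = 0.493), and its other probe gave 0.60 with overlapping groups. Uqcrq, a small subunit of complex III, was between -0.08 and 0.54 against -0.28 to -0.11 (difference 0.42, SE 0.21, adjusted p = 0.580), and its other probe gave 0.30, again with overlapping groups. By the brightest probe these 3 of 82 members had groups that did not overlap, all with sarcomatoid tumors higher, beside 1.33% of all probes in either direction.

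Sdhb, the iron-sulfur subunit of complex II, was at -0.01 (323), 0.45 (323 lung), 0.34 (307), 1.19 (307 lung) and 0.21 (594). In adenocarcinomas it was at -0.36 (105), 0.07 (131), 0.03 (470), -0.94 (17) and -0.33 (85). Tumor 323 lay below adenocarcinomas 131 and 470, and the difference was 0.74 (SE 0.30, limma adjusted p = 0.480). The other subunits of complex II had differences of -0.17 (Sdha), -0.05 (Sdhc) and 0.12 (Sdhd), the last pair being the membrane anchors.

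The members nearest to a difference downward were Cox7a1 and Ndufs6. Cox7a1 had a mean log2 ratio of -0.21 ± 0.28 (SD, n = 5) in sarcomatoid tumors and 0.95 ± 1.08 (SD, n = 5) in adenocarcinomas, a difference of -1.17 (SE 0.45, limma adjusted p = 0.468). The groups overlapped, since 323 was at 0.12 and 470 at 0.04. Without tumor 105 the difference was -0.75 (SE 0.33). An exact permutation test of this gene alone (two-sided, 5 against 5 tumors, smallest possible p 0.00794) gave p = 0.0238. With 1 value per tumor number, 3 against 5, the exact test gave p = 0.0357, the smallest it allows, while limma gave a difference of -1.21 (SE 0.56, adjusted p = 0.746) and no member was lower at an unadjusted p below 0.05. With 5 against 5 tumors the same exact test gave p = 0.524 for Cox6a2 (difference -1.06) and p = 0.659 for Cox8b (difference -0.85), and these 3 genes were the only ones tested so. The differences of Cox6a2 and Cox8b turned above 0 without tumor 105 (0.12 and 0.18), the tumor with the highest muscle score. Ndufs6, an accessory subunit of complex I, was between -0.69 and 0.00 in sarcomatoid tumors and between -0.31 and 1.08 in adenocarcinomas (difference -0.66, SE 0.28, adjusted p = 0.509), and its other 2 probes gave -0.57 and -0.56.

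**Figure D4:**
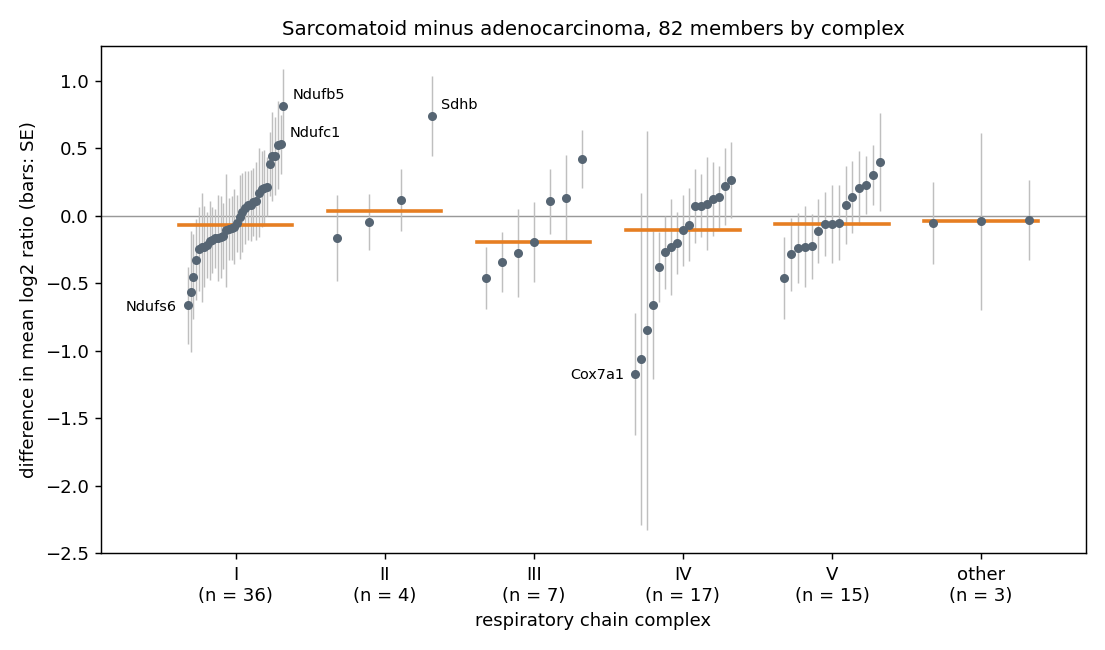
Difference in mean log2 ratio, sarcomatoid minus adenocarcinoma, for each of the 82 members by complex. Points are genes with their SE, the bar is the median of the class, and the 5 members with an unadjusted p below 0.05 are named; medians lie between -0.19 and 0.03, and the widest errors in complex IV belong to Cox6a2 and Cox8b.

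In complex III the member nearest to a lower level was Uqcrfs1, the Rieske iron-sulfur protein (difference -0.46, SE 0.23, adjusted p = 0.568). In complex IV it was, after Cox7a1, Cox5b (-0.38, SE 0.26, adjusted p = 0.704). In complex V, Atp5g3 was at -0.46 (SE 0.31, adjusted p = 0.689) and Atp5f1, a stalk subunit, at 0.30 (SE 0.22, adjusted p = 0.724). Other probes of Atp5f1 gave 0.21 and, well above background on 9 arrays, -0.32. The 3 genes Atp5g1, Atp5g2 and Atp5g3 encode the same ring subunit of ATP synthase. Atp5g1 had a difference of -0.23 and Atp5g2 of 0.23.

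The extremes lay in single tumors. By the medians of the complexes, tumor 131 was highest in complexes I (0.31), IV (0.38) and V (0.26), just above 85 in III (-0.0972 beside -0.0986), and lowest in complex II (-0.43). Tumor 470 was lowest in complex I (-0.37), and tumor 323, scanned alone in its batch, was second in complex I (0.25). Of the 36 complex I genes, 12 were highest in 131, 9 in 323 and 7 in 85, while 13 were lowest in 470. Over all 82 members, tumor 131 held the highest value in 21 and tumor 470 the lowest in 21, and 470 held the highest in 1. Both are adenocarcinomas, so these extremes lie in the same group.

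**Figure D5:**
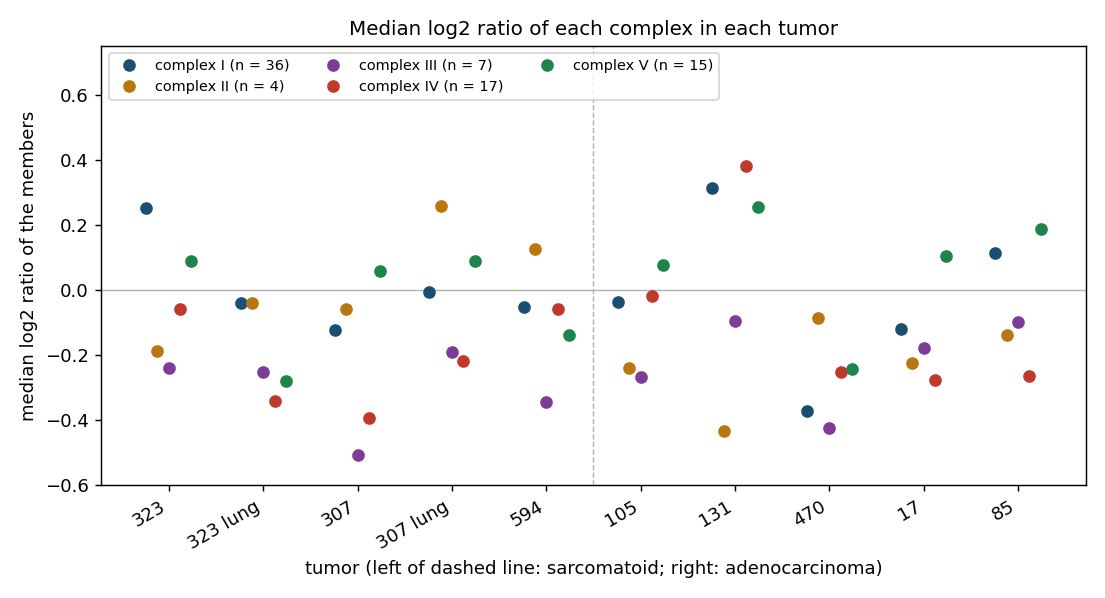
Median log2 ratio of the members of each complex in each tumor, with sarcomatoid tumors left of the dashed line and adenocarcinomas right of it. Tumor 131 has the highest medians of complexes I, IV and V (0.31, 0.38 and 0.26), lies just above 85 in complex III, and tumor 470 the lowest of complex I (-0.37).

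In the search described below, tumors far from the rest of their group were no more frequent than chance gives. That search did not cover all 82 members in both groups. Ndufa4 was lowest in 470. First assigned to complex I and later placed in complex IV, it was at -1.16 in 470, against 0.53 to 0.60 in the other 4 adenocarcinomas and -0.54 to 1.18 in sarcomatoid tumors. Ndufc2 was highest in 131 (1.82), with -0.54 to 0.63 in the other 9. Ndufa11 was highest in 85 (2.16), with -0.41 to 1.15 in the others, and its other probe gave 2.27 in 85. Ndufa13 was lowest in 17 (-0.48) and 85 (-0.50), and lay between 0.36 and 1.11 in the other 8. The 3 probes that the file places on the mitochondrial genome, which are no members, lay close to each other in each of these tumors. They were at 0.90 to 1.31 in 323, 1.13 to 1.23 in 131 and 0.55 to 0.71 in 17, but at -1.30 to -1.15 in 594 and -1.22 to -0.74 in 470. The median of all 82 members was 0.08 in 323, 0.22 in 131, -0.15 in 17, -0.06 in 594 and -0.31 in 470.

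Atp5s, the gene now named Dmac2l, was far lower in 3 tumors. It was at -2.87 in 323, -2.61 in 323 lung and -3.58 in 17, and between -1.07 and -0.38 in the other 7. Its other probe gave -2.14, -2.59 and -4.07 in those 3 tumors and -1.52 to -0.22 in the rest. Tumors 323 and 323 lung share an origin.

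Between lung and mammary sarcomatoid tumors, again no member passed. In a limma fit with 3 groups, 10 probes (0.0249%) had an adjusted p below 0.05 and none was a member, with 0.423 the lowest adjusted p among members. At an unadjusted p below 0.05 there was 1 member higher and 1 lower, beside 10.7% of all probes. The median difference was 0.03, beside 0.03 for all probes, with 43 members higher in lung tumors and 39 lower. Atp5g1 was at -0.23 (323 lung) and 0.09 (307 lung), above -1.17 (323), -0.82 (307) and -0.90 (594), a difference of 0.89 (SE 0.36, adjusted p = 0.423). Within the pairs it was 0.94 higher in 323 lung than in 323 and 0.91 higher in 307 lung than in 307. With scan batch as a term the difference was 0.14 (adjusted p = 0.980). Cox6c was lower by sign (-0.79, SE 0.34, adjusted p = 0.454) and Cox5b higher (0.66, SE 0.33, adjusted p = 0.513), and with scan batch as a term they were at -0.31 and 0.35. Both lung tumors lay in scan batch 3, which held no mammary sarcomatoid tumor, so among sarcomatoid tumors site and batch cannot be told apart. Epithelial genes were also lower in lung tumors (mean of 7 genes -1.71 in 323 lung and -2.45 in 307 lung, beside 0.89 to 1.54), and their part was not tested. In the pairs 29 members (35.4%) were higher in lung in both and 20 (24.4%) lower in both, beside 30.6% and 30.7% of all probes, with a median of -0.11 in pair 323 and 0.15 in pair 307.

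None of the 7 measured assembly factors of complex IV, the 2 cytochrome c genes, the 16 citric acid cycle genes, the 11 biogenesis regulators or the 75 mitochondrial ribosomal proteins passed an adjusted p of 0.05 in any of the 3 comparisons. Their median group differences were -0.12, -0.05, -0.13, -0.13 and 0.03. On the muscle score, 71 of the 75 ribosomal proteins had slopes below 0 (median -0.08, beside -0.02 for all probes). Of these 71, 5 had an unadjusted p below 0.05 in limma, beside 1133 of all 40196 probes downward and 5.9% in either direction. How many of all probes had slopes below 0 was not counted. Among the 16 cycle genes 10 slopes were below 0 (median -0.01). These signs come from the deposited log2 table and were not checked under other normalizations. For the members, loess of the scanner files turned the balance of small slopes, while the other normalizations did not. Cs, which makes citrate, was between -1.32 and -0.47 in all tumors. Ppargc1a, a coactivator of mitochondrial biogenesis, ranged from -2.65 in 307 lung to 1.52 in 85 (group difference -1.04, which did not pass). Cox17, a copper chaperone for complex IV, was at -6.47 in 323 and between -2.21 and 0.38 in the others.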

How the data were processed

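Agilent arrays gave 1 measurement for each of 10 mouse tumors. The authors deposited the scanner files, with spot intensity in both channels and log10 red over green ratios, and a normalized table of log2 ratios made with limma, whose steps are not given in the sources used here. The deposited log2 table was the main input. Each of its columns correlated best with the red over green ratio of its own array (r 0.868 to 0.926). It holds 40196 probes of the 41174 on the array.

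Members were taken by gene name from the scanner file that holds names, 80 of 82 matched to RefSeq by accession and 2 by symbol. The members and the gene lists were chosen with earlier results of these data known. Named in the text were tissue isoforms, complex II, the 2 smallest p per complex, the 2 highest and 2 lowest slopes per complex, any member past the threshold and the 3 smallest p for lung. Genes outside this rule (Ndufs6, Ndufc2, Ndufv2, Ndufs1, Atp5s, Cs, Cox17, Ppargc1a) were chosen after their values were seen.

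Tests were limma 3.58.1 (R 4.3.3; lmFit and eBayes, two-sided, Benjamini-Hochberg over all probes, threshold 0.05): group alone, 3 groups, and the muscle score as a term. Separate animals are not stated for each tumor, and 2 pairs share an origin, so p-values measure the spread between these samples. The pairing of lung with mammary tumors comes from shared tumor numbers. The fits were also run on simulated data, from which no conclusion is drawn here. Promoter windows came from RefSeq (GRCm38.p6). Scan batches follow the protocol in the file headers: batch 1 held 323, batch 2 held 307, 594, 105 and 470, and batch 3 the rest. Alternatives were the scanner intensities with normexp (offset 50) and loess, the log10 ratio turned to log2, median centring, quantile normalization, a filter (well above background on 5 arrays), the mean over probes, each tumor left out, scan batch, slide, muscle score, 1 value per tumor number, mammary tumors alone, the tumor number as a block, the median of the muscle list and the 2 tumors farthest from the median score left out. The number of arrays limits the precision.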

Additional observations from a re-analysis of the deposited data

Results flagged for a closer look

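Within the groups of 5 tumors, 3 of 90 combinations of a measure and a group held a tumor far from the other 4 (gap over range above 0.71), where chance gives about 1 in 20, or 4.5. The number found was thus below that given by chance. The 90 combinations did not cover all 82 members in both groups. The chance share is rough for the sarcomatoid tumors, which hold 3 origins. Cox5b was at -0.66 in adenocarcinoma 470, against -0.26 to -0.22 in the other adenocarcinomas. Ndufa4 was at -1.16 in the same tumor, against 0.53 to 0.60. Cox7a2 was at 0.32 in sarcomatoid tumor 323, against -0.48 to -0.35. No difference between effects in separate groups was tested.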

How the results depend on the processing

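No member passed the threshold for sarcomatoid against adenocarcinoma under any of 22 alternatives, nor for lung against mammary tumors under any of 20. The median difference of the members lay between -0.13 and 0.08 for the first, within-batch values included, and between -0.15 (scan batch as a term) and 0.11 for the second. Leaving out 1 tumor at a time gave medians of -0.12 to -0.01 and of -0.04 to 0.09, with 0 members passing. Over all probes, 618 passed for the groups without adenocarcinoma replicate 3 (tumor 470), where the lowest adjusted p of a member was 0.169. With the tumor number as a replicate block, lung against mammary gave a median of 0.04 and 0 members. On the muscle score, 2 members passed in the full fit, and 1 to 2 with a tumor left out. With scan batch as a term 1 passed, and 0 passed without the 2 tumors farthest from the median score or without the 3 highest in muscle genes, an alternative chosen after seeing the data; fewer tumors remained there. The slope of Cox7a1 was -0.21 without the 2 farthest tumors, -0.16 without the 3 highest, and -0.13 (without tumor 105) to 0.28 with 1 tumor left out. Without the 3 highest, the group difference of Cox6a2 was 0.95 and that of Cox8b 0.56, and with the muscle score as a term that of Cox8b was 0.11. With 1 tumor left out, the group differences lay between -1.72 and 0.12 for Cox6a2, -1.72 and 0.18 for Cox8b, and -0.35 and 0.0042 for Sdha, the highest each time without tumor 105. The cause was not tested. Low signal limits Cox8b, Cox4i2 and Cox8c.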
